A study of Mus musculus with 21 samples.

Results

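Extracellular matrix genes are described here as a set of 38 named mouse genes, of 37310 genes in the annotation used. They were listed by symbol, with earlier results of these data known. They comprise 6 fibrillar collagen chains, 4 other collagen chains, 7 basement membrane genes, 5 genes of fibronectin and elastic fibres, 4 proteoglycans, 5 matricellular proteins, 3 collagen and elastin crosslinking enzymes, and 4 proteases or protease inhibitors. The matrix is the protein and glycan network that cells secrete around themselves. Fibrillar collagens are assembled as trimers and crosslinked by lysyl oxidases, while type IV collagen, laminins, nidogens and perlecan form the thin sheets called basement membranes. In embryonic mesenchyme the fibrillar collagens and their binding proteins dominate, whereas pluripotent cells make mostly basement membrane components.

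The study measured RBM10, an RNA-binding protein that regulates alternative splicing. RNA bound to it was mapped by iCLIP, in which ultraviolet light (254 nm, 400 mJ/cm2) crosslinks protein to RNA and the crosslinked nucleotide is read out. The md cells are a mandibular line from the pharyngeal arches of mouse embryos at 11.5 days post coitum (CD1 mothers, "Immortomouse" father). They were grown at 33 °C with 100 U/ml interferon and 10% fetal calf serum. In these cells 4 iCLIP libraries were made with an anti-RBM10 antibody and 4 with rabbit IgG. Polyadenylated RNA was sequenced from 3 samples of wild-type md cells (WT) and from 4 RBM10 knockout (KO) clones made with CRISPR/Cas9, each clone giving 1 library. Clones 1 and 2 carry a deletion in exon 3 of Rbm10 and clones 3 and 4 a deletion in exon 9. The embryonic stem (ES) cell groups were 3 samples of the male gene-trap line CSI176 (RBM10 KO) and 3 of its parental line E14Tg2a.4. Both were grown with LIF and 15% fetal calf serum, and the ES knockout is 1 clone against its parent. In both cell types the replicates of WT, and in ES cells those of KO, are samples of 1 line. In the ES and crosslink tests p-values measure only the spread between samples of 1 line. In the md RNA tests they mix that spread with the spread between clones.

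Expression was deposited as TPM, a length-normalized share of each library's transcripts that keeps no read depth, and was summed per gene. The targeted gene stood at 21.4, 23.2 and 23.7 TPM in md WT, 23.2 and 19.7 TPM in the exon 3 clones, and 7.20 and 3.49 TPM in the exon 9 clones. The summed Rbm10 level therefore does not check the genotype of the exon 3 clones. In ES cells it was 32.2 to 33.5 TPM in WT and 3.63 to 4.27 TPM in KO. The 12 mesenchyme markers summed to 168 to 174 TPM in md WT and 177 to 342 TPM in the clones, with Msx2, Hand2, Thy1 and Alx4 listed at 0. The 9 pluripotency markers summed to 38.2 to 44.2 TPM in md WT and 4816 to 5614 TPM in ES WT. In md WT Klf4 was at 28.9 to 33.6 TPM and Sox2 at 7.04 to 7.67 TPM. Pou5f1, a defining pluripotency factor, was listed at 0 in md cells and stood at 553 to 683 TPM in ES cells. The iCLIP libraries held 774816 to 2847066 crosslinks with RBM10 antibody and 103017 to 2214515 with IgG, the IgG libraries 3 and 4 being the shallowest. All RBM10 libraries shared a sequencing lane and all IgG libraries another, so antibody and lane cannot be told apart.

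The intronic positions with the most RBM10 crosslinks are shown first, as examples. A single position per gene was taken, with crosslinks in all 4 RBM10 libraries. Each sequence is mm9, read 5′ to 3′ in the sense of the gene from the reference genome, and the capital letter is the crosslinked nucleotide. In the first 4 the sequence starts 20 bases upstream and ends with the first 10 bases of the next exon.
Col1a2, intron 19, chr6:4470504-4470605, plus strand: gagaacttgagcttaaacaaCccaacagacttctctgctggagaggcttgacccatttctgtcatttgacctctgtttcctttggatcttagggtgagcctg
Thbs1, intron 2, chr2:117938608-117938715, plus strand: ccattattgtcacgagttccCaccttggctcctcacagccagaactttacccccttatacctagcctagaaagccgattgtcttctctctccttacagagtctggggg
Col1a1, intron 8, chr11:94801313-94801441, plus strand: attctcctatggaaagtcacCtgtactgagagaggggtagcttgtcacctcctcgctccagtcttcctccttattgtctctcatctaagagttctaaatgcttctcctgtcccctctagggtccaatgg
Col5a1, intron 12, chr2:27817476-27817591, plus strand: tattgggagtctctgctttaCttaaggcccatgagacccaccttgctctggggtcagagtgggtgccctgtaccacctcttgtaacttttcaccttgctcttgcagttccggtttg
Hspg2, intron 70, chr4:137107832-137107892, plus strand: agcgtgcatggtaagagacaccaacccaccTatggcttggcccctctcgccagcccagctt

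The Col1a2 position, 72 nt before the next exon, held 201, 280, 1202 and 247 crosslinks in the 4 RBM10 libraries and 4, 1, 0 and 0 in the IgG libraries. The Thbs1 position lay 78 nt before the next exon and held 309 RBM10 crosslinks in all (17, 81, 189 and 22), against 4 in a single IgG library and 0 in the other 3. The Col1a1 position lay 99 nt before the next exon, in an intron of only 160 nt, and held 130 RBM10 crosslinks against 1 in IgG. At each of these positions the IgG libraries were nearly empty, of which libraries 3 and 4 were also the shallowest. Crosslinks in every RBM10 library were a condition of the choice. The Col5a1 position (86 nt before the exon) held 98 RBM10 crosslinks and 5 in IgG. The Hspg2 position held 78, against 2 in IgG, and differs in place, since it lies 148 nt before the exon in an intron of 168 nt, close to the upstream exon. The sixth, in intron 2 of Lox, lysyl oxidase, lay 91 nt before the next exon with 46 RBM10 crosslinks and 0 in IgG. Of the members, 17 had their leading position in an intron, where the crosslinked base was C in 15 and U in 2. In Col6a1 and Fbln2 the leading position was exonic, at a C. These positions were picked for their RBM10 counts, so the counts are a description and carry no test.

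Over the whole set a large share of the intronic RBM10 crosslinks lay ahead of exons. Of all crosslinks within the 38 genes, 77.0% ± 6.84 (SD, n = 4) were intronic with RBM10 and 43.2% ± 1.69 with IgG, and the ranges did not overlap. In all other genes the intronic shares were 73.2% ± 4.59 and 63.4% ± 2.27. The members thus stood apart mainly in their lower IgG share. Among the intronic crosslinks, 40.6% ± 3.79 with RBM10 and 13.4% ± 3.89 with IgG lay within 100 nt upstream of a 3′ splice site, a zone that makes up 5.04% of the members' intronic sequence. The corresponding shares in all other genes were 24.0% ± 5.29 and 3.49% ± 0.635, where the zone is 1.90% of intronic sequence, and whether the shorter introns of the matrix genes account for their larger share was not tested. In the 100 nt after 5′ splice sites lay 21.2% ± 1.54 of the members' intronic RBM10 crosslinks and 10.5% ± 1.66 of those with IgG. That zone makes up 5.01% of the members' intronic sequence. In all other genes its shares were 11.5% ± 2.02 with RBM10 and 3.40% ± 0.317 with IgG. In short introns the zones before 3′ and after 5′ splice sites overlap, so a position can count in both. The intronic crosslinked base was C for 47.2% ± 3.01 and U for 33.5% ± 2.94 with RBM10, against 17.1% ± 3.64 and 48.9% ± 4.12 with IgG.

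Col1a2 held 38.9% of the members' 138037 RBM10 crosslinks. Leaving it out gave 37.3% ± 4.52 of intronic crosslinks before 3′ splice sites with RBM10 and 11.3% ± 3.68 with IgG. By gene, the share was larger with RBM10 in 27 of the 28 members with enough crosslinks to test. The exception was Bgn, which encodes biglycan, at 15.6% and 19.0%. In Col1a1, where the zone is 46.6% of intronic sequence, the shares were 58.0% and 53.5%. The shares otherwise ran from 8.91% in Timp3 to 51.4% in Thbs1 with RBM10.

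**Figure D1:**
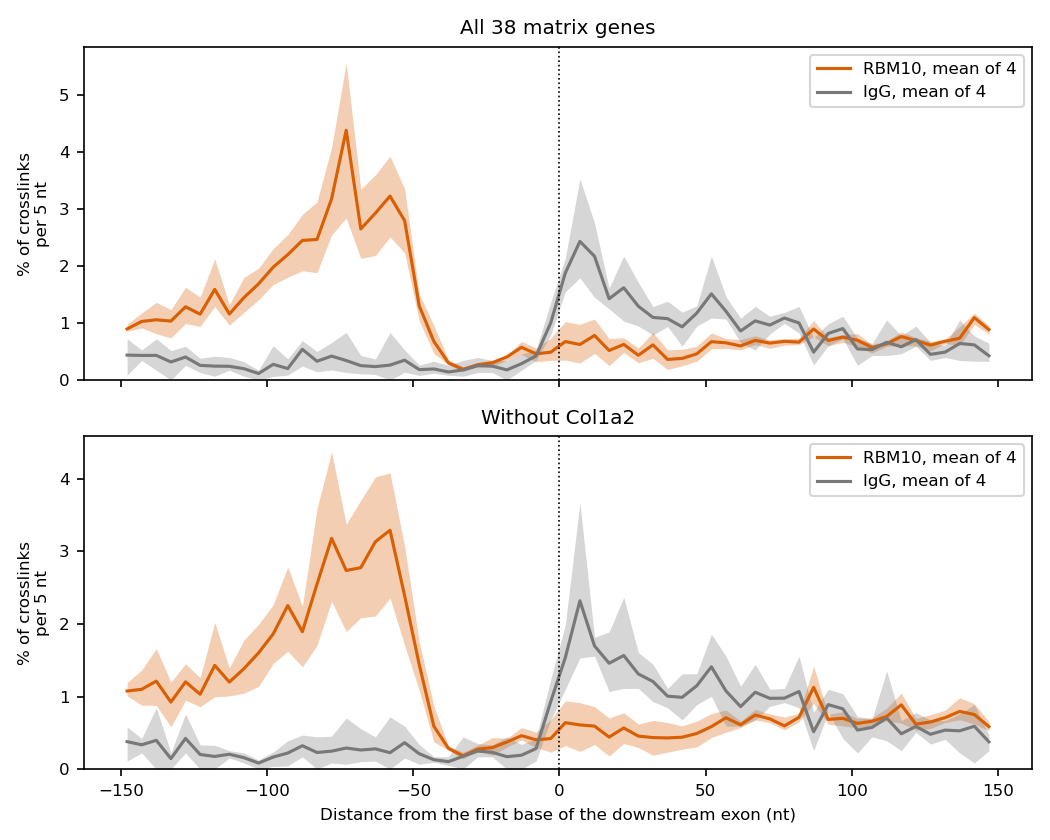
Crosslinks of the 38 matrix genes around 3′ splice sites, as the percent of each library's crosslinks in these genes per 5 nt (vertical axis) by distance from the first base of the downstream exon in nt (horizontal axis). Lines are means of 4 libraries and bands their ranges, with all genes above and without Col1a2 below. Upstream of the exon the RBM10 line is highest at 73 nt when all genes are counted. This is next to the Col1a2 position at 72 nt, which alone held 1930 RBM10 crosslinks. With RBM10, 4.14% of crosslinks lie 10 to 50 nt before the exon and 5.47% in its first 50 nt. With IgG these shares are 1.78% and 15.1%.

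The number of introns with RBM10 crosslinks differed widely among the genes. In the most expressed Col1a2 transcript 49 of 51 introns had a crosslink before the 3′ splice site in all 4 RBM10 libraries, and intron 19 alone held 21.8% of the 20634 such crosslinks. In Col1a1, the other chain of type I collagen, 49 of 50 introns were hit in all 4, and the leading intron held 7.98%. Thrombospondin-1 (Thbs1), a secreted glycoprotein that binds matrix and activates TGF-beta, was hit in all of its 21 introns. In Col5a1, whose product regulates the width of type I fibrils, 52 of 65 introns were hit, and in Hspg2, which encodes perlecan, 52 of 96. At least 1 IgG library had a crosslink in the same zone in 51 of the Col1a2 introns, 49 of the Col1a1 introns and all 21 of the Thbs1 introns. All 4 IgG libraries did in 2, 1 and 0 of them. IgG libraries 3 and 4 held only 263 and 337 crosslinks over all of Col1a2, and 149 and 188 over Thbs1. Counts of introns hit in all 4 libraries are therefore limited by depth and cannot be compared between antibodies. Among the other collagens, 23 of 53 introns in Col5a2 and 11 of 34 in Col6a1 were hit in all 4 RBM10 libraries. The rest had few: 2 of 50 in Col3a1, 1 of 65 in Col12a1, 3 of 27 in Col6a2, 6 of 51 in Col4a1, 6 of 47 in Col4a2 and 0 of 66 in Col11a1. The Col6a3 transcript used has only 2 introns, and 0 were hit. The crosslinks per gene also went with RNA level. Across the 28 tested members, RBM10 crosslinks per base of gene and md WT TPM had a Spearman rho of 0.90, and IgG crosslinks a rho of 0.92. The points share libraries, gene lengths and TPM values, so these are descriptions.

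Crosslinks over whole gene bodies were tested against IgG for 28 of the 38 genes. The 10 untested genes, Lama1, Nid2, Eln, Fbln1, Dcn, Lum, Postn, Thbs2, Loxl2 and Mmp2, had 0 to 26 RBM10 crosslinks in all. RBM10 crosslinks were higher in 7 members and lower in 3 (edgeR quasi-likelihood test, adjusted p under 0.05 over all 9247 genes tested, which is what "called" means for crosslinks). Of all genes 36.9% were called, 19.6% higher and 17.4% lower, so the members' count is close to the background. The groups did not overlap in 11 of the 28 members, against 36% of all genes. The median log2 fold difference was 0.28 for the members and 0.03 for all genes.

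Of the 10 collagen chains in the fibrillar and other collagen groups, 4 were called, all higher with RBM10: Col1a2, Col3a1, Col6a1 and Col12a1. With each RBM10 library paired to its IgG control, Col12a1 lost the call and 2 fibrillar chains gained one, Col5a1 (log2 0.62 ± 0.17, edgeR adjusted p = 0.0148) and Col1a1 (0.47 ± 0.17, edgeR adjusted p = 0.04999, just under the threshold). Col1a2 had 5780, 12752, 28416 and 6785 crosslinks with RBM10 and 1989, 3833, 263 and 337 with IgG. In CPM (crosslinks scaled to the library's total in tested genes with TMM factors) this was 7957 ± 2759 and 2854 ± 340 (SD, n = 4 each), a log2 fold difference of 1.48 ± 0.27 (SE, edgeR adjusted p = 0.00199). All RBM10 libraries were above all IgG libraries. With each crosslinked position counted once the call was lost (log2 0.54, edgeR adjusted p = 0.0619). Col3a1, the type III chain, stood at 108 ± 19.4 and 46.2 ± 13.1 CPM (log2 1.03 ± 0.24, edgeR adjusted p = 0.00589), and Col6a1, a chain of type VI microfibrils, at 180 ± 10.4 and 102 ± 24.5 CPM (log2 0.96 ± 0.20, edgeR adjusted p = 0.00349). Neither gene's groups overlapped.

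Col12a1, a fibril-associated collagen, showed a log2 fold difference of 0.86 ± 0.27 (edgeR adjusted p = 0.0245), with overlapping groups. Its value with paired libraries was 0.67 (log2, edgeR adjusted p = 0.0553). Perlecan (Hspg2) had 967, 2367, 3293 and 727 crosslinks with RBM10 and 489, 1063, 40 and 66 with IgG, or 1067 ± 106 and 608 ± 91.5 CPM (log2 0.79 ± 0.18, edgeR adjusted p = 0.00555). Its groups stood apart without overlap.

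Among matricellular genes, Thbs1 was at 2645 ± 826 CPM with RBM10 and 1526 ± 267 with IgG (log2 0.80 ± 0.25, edgeR adjusted p = 0.0229). With each crosslinked position counted once the call was lost and the sign turned (log2 -0.05, edgeR adjusted p = 0.866). How molecular barcodes were used is not given in the sources used here, and how far repeated counts at a position reflect amplification was not tested. Tnc, tenascin-C, was called higher on few crosslinks, 15, 37, 121 and 34 against 7, 16, 0 and 2 (log2 1.61 ± 0.56, edgeR adjusted p = 0.0357). With paired libraries its log2 fold difference was 1.01 (edgeR adjusted p = 0.143).

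The members lower with RBM10 were both tissue inhibitors of metalloproteinases and nidogen-1. Timp3 had 132, 320, 219 and 56 crosslinks with RBM10 and 164, 372, 22 and 21 with IgG. In CPM these were 108 ± 29.4 and 230 ± 33.6 (log2 -1.09 ± 0.22, edgeR adjusted p = 0.00299), with no overlap. Timp2 differed by -0.75 ± 0.25 (log2, edgeR adjusted p = 0.0299) and Nid1, which links laminin to type IV collagen, by -0.73 ± 0.21 (log2, edgeR adjusted p = 0.0164). For Nid1 the sign turned on intronic positions alone (log2 0.67, edgeR adjusted p = 0.101), and the call was lost with a minimum of 10 crosslinks (0.0599), with no filter (0.0667), and without RBM10 library 1 or 3 or IgG library 1 (0.0708 to 0.0728). The gene body of Timp2 overlaps another annotated gene on the same strand, so its crosslinks cannot be assigned to it alone. With both antibodies, libraries 1 and 2 differed in level from libraries 3 and 4. For Timp2 they stood at 403 and 430 against 223 and 224 CPM with RBM10, and at 616 and 622 against 427 and 435 CPM with IgG. For Col1a1 libraries 3 and 4 were higher, at 3084 and 3242 against 2068 and 1600 CPM with RBM10. With IgG they were at 2392 and 2264 against 1414 and 1168 CPM. All 10 called members had the same direction within libraries 1 and 2 alone and within 3 and 4 alone. Tnc was called in neither subset, and Col6a1, Col12a1 and Nid1 were not called in libraries 3 and 4. Without IgG library 1, 5 members were called, and without IgG library 2 or RBM10 library 3, 6 were. Col12a1, Timp2 and Tnc were lost in each of these 3 cases, Thbs1 without IgG library 1 or 2, and Timp2 and Tnc also without RBM10 library 4. Tnc was lost without IgG library 3 as well.

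Intronic and exonic positions differed. On intronic positions alone, 15 of 27 tested members were higher with RBM10 and 2, Timp2 and Timp3, were lower, against 29.3% of all genes higher and 18.5% lower. The largest intronic differences were in Thbs1 (log2 2.46 ± 0.28, edgeR adjusted p = 3.1e-06), Col1a2 (2.43 ± 0.26, edgeR adjusted p = 1.8e-06) and Col1a1 (2.32 ± 0.33, edgeR adjusted p = 2.4e-05). Over the whole gene body Col1a1 had not passed without pairing, at 0.48 ± 0.29 (log2, edgeR adjusted p = 0.198). Fn1, fibronectin, moved from 0.42 to 1.53 and Lox from -0.40 to 1.77 on the log2 scale. On exonic positions alone no member was higher, and 2 of 25, Nid1 and Lox, were lower, against 17.6% of all genes higher and 2.46% lower.

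**Figure D2:**
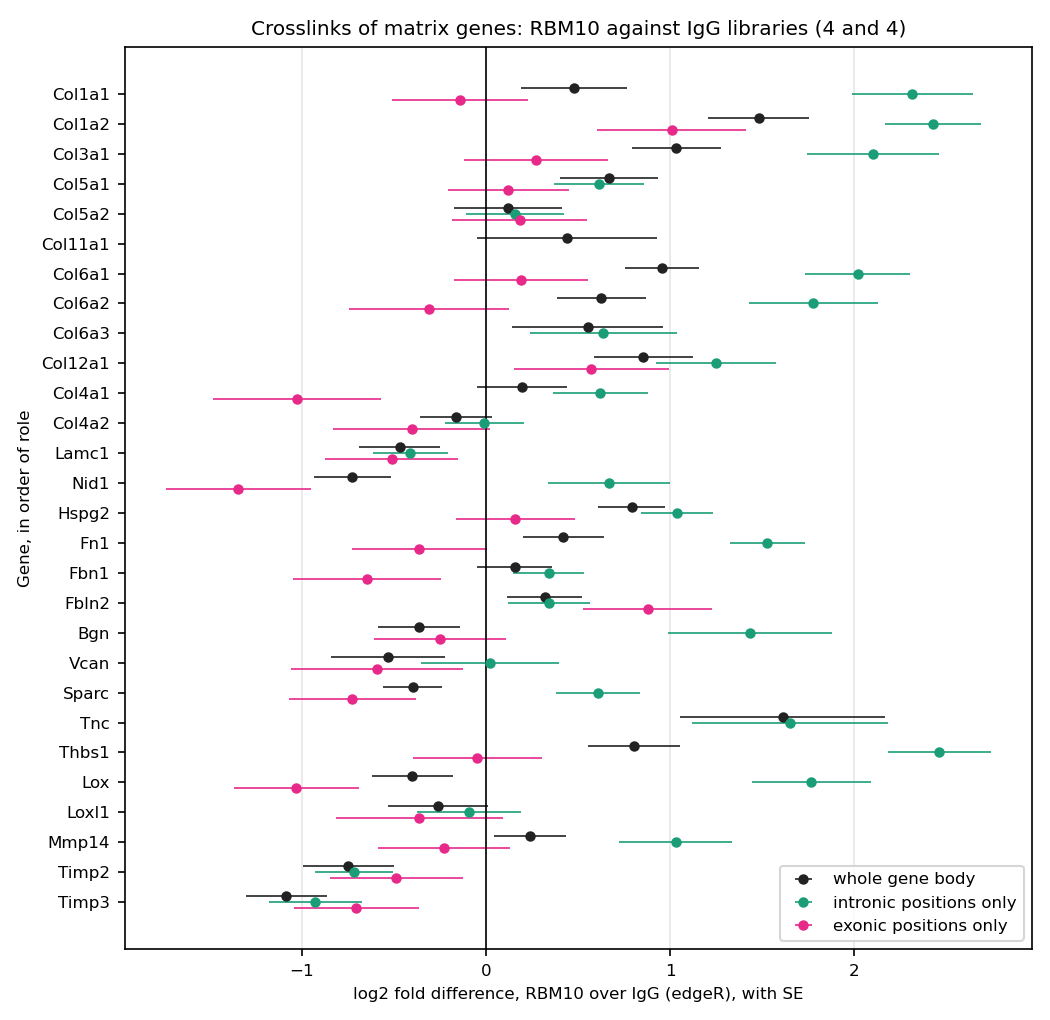
Log2 fold difference of crosslinks, RBM10 over IgG libraries (horizontal axis, 4 and 4 libraries), for the 28 tested matrix genes (vertical axis), over whole gene bodies and over intronic or exonic positions alone. Points are edgeR estimates and bars their SE, and genes without a point for a class were not tested in it. Intronic values of Col1a1, Col1a2, Col3a1, Col6a1, Col6a2, Fn1, Thbs1, Tnc and Lox lie at 1.53 or above, while the exonic values of most genes lie near or below 0.

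Of the other matrix-related lists, collagen processing enzymes had 5 of 15 tested genes higher with RBM10 and 1 lower. Matrix receptors had 2 of 14 higher and 7 lower, TGF-beta pathway genes 0 of 15 higher and 6 lower, and laminin chains outside the set 1 of 4 higher and 0 lower.

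Wild-type md and ES cells differed in the RNA levels of matrix genes, and no matrix protein was measured. Of 32 members with at least 1 TPM in 3 of the 6 WT libraries, 22 were at least 4 times higher in md cells and 6 at least 4 times higher in ES cells, in each case with no overlap between the groups. Over all genes the shares were 14.5% and 17.1%. Type I collagen RNA was abundant in md cells, at 435 ± 52.7 TPM for Col1a1 and 984 ± 95.2 TPM for Col1a2, against 0.379 ± 0.0225 and 0.408 ± 0.132 TPM in ES cells (SD, n = 3 each). Sparc, a collagen-binding glycoprotein, was at 513 ± 57.8 and 44.2 ± 9.45 TPM, Thbs1 at 326 ± 5.51 and 2.02 ± 0.246 TPM, and Timp2 at 299 ± 8.95 and 1.38 ± 0.280 TPM. Col3a1 and Col6a3 were listed at 0 in all ES WT libraries.

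The genes higher in ES cells were Nid2, Lama1, Fn1, Fbln1, Vcan and Loxl2. Nidogen-2 (Nid2) was at 97.2 ± 2.36 TPM in ES and 0.134 ± 0.0260 TPM in md WT. Lama1, the laminin alpha-1 chain of early basement membranes, stood at 5.85 ± 0.642 TPM and Fbln1, fibulin-1, at 34.0 ± 5.73 TPM in ES WT, and both were listed at 0 in every md library. Fn1 was at 111 ± 20.4 TPM in ES and 25.1 ± 1.65 in md WT, from 1 of its 3 annotated transcripts, the only one joined here. Lamc1, Nid1, Hspg2 and Mmp2 lay within 4-fold of each other in the 2 cell types. Of the members below 1 TPM in nearly all libraries, Col11a1 was at 0.835 ± 0.0395 TPM, Thbs2 at 0.275 ± 0.00629 TPM and Postn at 0.129 ± 0.0399 TPM in md WT. Eln, elastin, was listed at 0 in md cells, and Dcn, decorin, was above 1 TPM in clone 3 only, at 1.48 TPM. Lum, lumican, was listed at 0 in all 13 libraries. The md and ES tables were deposited separately and the cells were grown in different media, so cell type, medium and table cannot be told apart.

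In md cells no member was called for the 4 knockout clones together, while levels ranged widely among the clones. None of the 28 tested members was called against WT (limma on log2(TPM + 1), adjusted p under 0.05 over all 12090 genes tested), where 0.0165% of all genes were called, and 0 of the 28 had an unadjusted p under 0.05. The lowest-p members were Col4a2, a chain of type IV collagen (log2 0.58 ± 0.40, limma adjusted p = 0.791), Fn1 (0.72 ± 0.50, limma adjusted p = 0.791) and Thbs1 (-0.95 ± 0.67, limma adjusted p = 0.791). In the other role groups the lowest-p members were Bgn at -1.18 ± 1.68, Mmp2 at 0.40 ± 0.65, Col12a1 at -0.35 ± 0.38, Col1a1 at -0.27 ± 0.47 and Loxl1 at 0.13 ± 0.16 on the log2(TPM + 1) scale, with limma adjusted p from 0.872 to 0.929.

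On the TPM + 1 scale the highest clone was at least 4 times the lowest in 15 of the 28 members, against 5.37% of all genes, and the median ratio was 4.72 in the members and 1.57 over all genes. The 3 WT samples spanned at most 1.30-fold on the same scale in each of the 28 genes. WT samples are replicates of 1 line and the clones are separate lines, so differences between clones and effects of the deletion cannot be told apart. In these bulk samples fewer cells of a type and less RNA per cell cannot be told apart either.

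Part of the spread followed the deleted exon. Both exon 3 clones were below and both exon 9 clones above every WT sample in 7 of the 28 members (Col3a1, Col6a2, Col6a3, Nid1, Fbn1, Bgn and Vcan), against 3.23% of all genes. The opposite order held for Lamc1 and Timp2, 2 members, against 5% of all genes. Between exon 9 and exon 3 clones 8 members were called, 6 higher and 2 lower in exon 9 clones, where 3.73% of all genes were called. Exon 3, exon 9 and WT samples were fitted together, so SE and p-values of this contrast rest partly on the spread of WT samples. They do not measure the spread between clones alone. The median log2 difference was 0.47 over the members and -0.06 over all genes.

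Bgn showed the widest difference of the tested members. Biglycan, a small proteoglycan of collagen-rich matrix, stood at 66.3, 74.4 and 80.6 TPM in WT, 2.75 and 3.29 TPM in the exon 3 clones, and 318 and 227 TPM in the exon 9 clones. The 3 sets were fully apart. The exon 9 minus exon 3 difference was 6.07 ± 0.19 on the log2(TPM + 1) scale (limma adjusted p = 8.8e-05). Against WT the exon 3 clones fell by 4.22 on that scale (SE 0.18, limma adjusted p = 0.000797), where 0.199% of all genes were called, and the exon 9 clones rose by 1.85 (SE 0.18, limma adjusted p = 0.0141), where 0.629% were.

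Versican (Vcan), a large hyaluronan-binding proteoglycan, followed the same order at a low level. It was at 3.87, 3.01 and 3.27 TPM in WT, 0.590 and 0.183 TPM in exon 3 clones and 6.19 and 6.58 TPM in exon 9 clones. The clone sets differed by 2.43 ± 0.20 (log2, limma adjusted p = 0.00422). Against WT the exon 3 clones were lower by -1.67 ± 0.18 (limma adjusted p = 0.0416), but without any 1 of the WT samples that call was lost (limma adjusted p 0.237 to 0.344), as it was without clone 2 (0.0515) and with a pseudocount of 0.1 TPM (0.0560).

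Thbs1 went the other way. It was at 325, 332 and 321 TPM in WT, 478 and 300 TPM in exon 3 clones and 63.6 and 86.3 TPM in exon 9 clones. The exon 3 clones lay on both sides of WT and the exon 9 clones far below it. The exon 9 clones differed by -2.12 ± 0.22 from WT (log2, limma adjusted p = 0.0183) and by -2.34 ± 0.24 from the exon 3 clones (limma adjusted p = 0.00976). Timp2 was at 296, 293 and 310 TPM in WT, 404 and 453 TPM in exon 3 clones and 210 and 261 TPM in exon 9 clones (exon 9 minus exon 3, log2 -0.87 ± 0.13, limma adjusted p = 0.0289).

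Of the collagens outside the basement membrane, 2 were called between the clone sets. Col3a1 stood at 34.0, 38.8 and 40.8 TPM in WT, 14.0 and 3.85 TPM in exon 3 clones and 55.4 and 121 TPM in exon 9 clones (log2 3.28 ± 0.56, limma adjusted p = 0.0338). Col6a2 stood at 18.5, 21.0 and 20.3 TPM in WT, 12.6 and 7.69 TPM in exon 3 clones and 41.4 and 77.7 TPM in exon 9 clones (log2 2.41 ± 0.33, limma adjusted p = 0.0206). In both genes the WT samples lay between the clone sets.

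In the basement membrane group, Nid1 was at 21.5, 18.3 and 19.0 TPM in WT, 2.20 and 10.4 TPM in exon 3 clones, and 69.9 and 33.9 TPM in exon 9 clones (log2 3.04 ± 0.59, limma adjusted p = 0.0480). Col4a2 was at 18.7, 16.7 and 15.1 TPM in WT, 12.3 and 21.0 TPM in exon 3 clones and 43.4 and 37.5 TPM in exon 9 clones (log2 1.27 ± 0.25, limma adjusted p = 0.0480). Col4a1, its partner chain transcribed from the same intergenic region in the opposite direction, had 4.74 and 16.5 TPM in exon 3 clones and 36.0 and 33.8 TPM in exon 9 clones, and did not pass. Fn1 missed the threshold (log2 1.60 ± 0.32, limma adjusted p = 0.0519), with 31.3 and 17.8 TPM in exon 3 clones and 96.7 and 56.2 TPM in exon 9 clones. Lox differed by -1.19 ± 0.60 (limma adjusted p = 0.298). Col6a3, a type VI chain that follows the order of the deleted exons, reached 45.7 TPM in clone 3 but 5.16 TPM in clone 4, against 1.68 and 2.45 TPM in exon 3 clones, and was not called.

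The calls changed when single WT samples were left out. Without WT sample 1, 2 or 3, the calls between the clone sets fell from 8 members to 3, which were Bgn, Vcan and Thbs1, and those of exon 9 clones against WT fell from 2 to 0. Without clone 1 the calls of Nid1, Timp2 and Col4a2 between the sets were lost (limma adjusted p 0.0564 to 0.0729), without clone 2 those of Col3a1 (0.0528) and Timp2 (0.0615), and without clone 3 those of Nid1 (0.0834) and Col4a2 (0.0764). Other members gained a call in each case, so that 6, 8 and 11 were called, and 14 were called without clone 4. With a pseudocount of 0.1 TPM Nid1 (0.0563) and Col4a2 (0.0515) were no longer called.

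**Figure D3:**
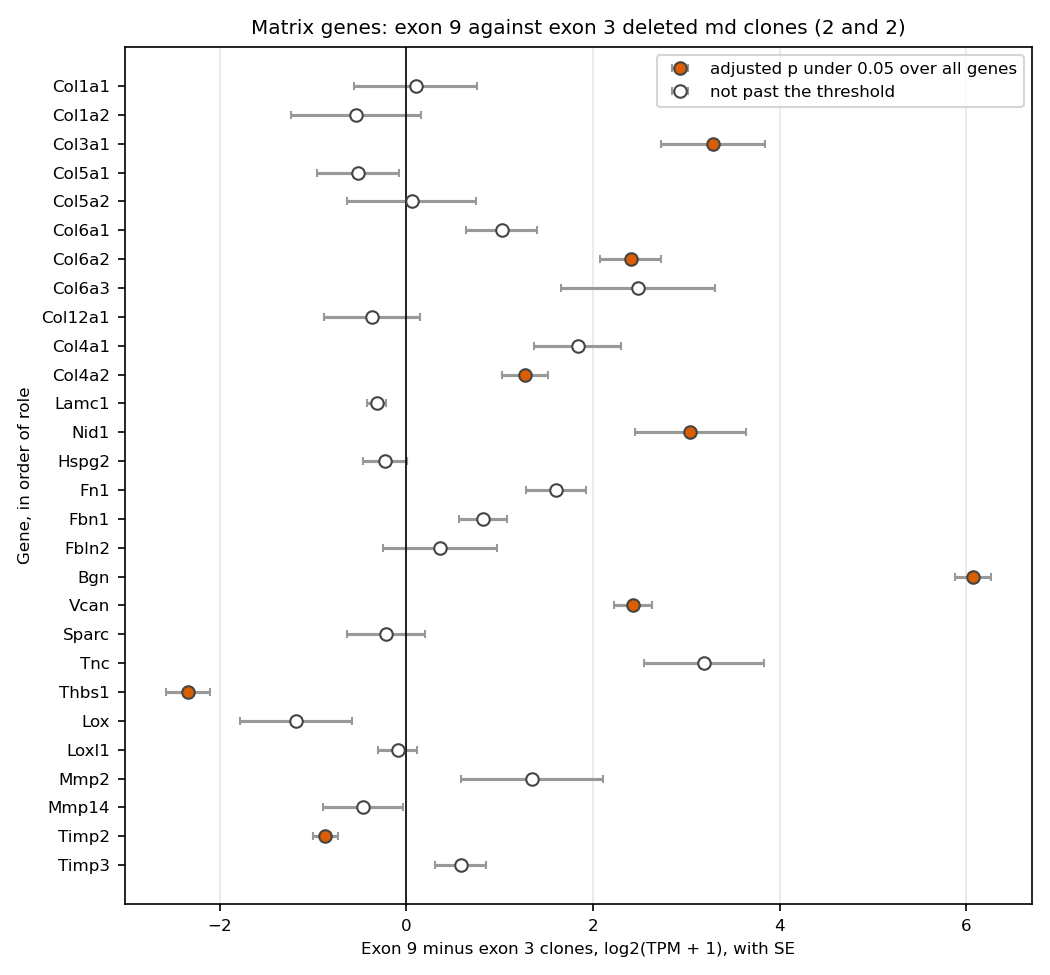
Difference between exon 9 and exon 3 deleted md clones (horizontal axis, log2(TPM + 1), 2 clones each) for the 28 tested matrix genes (vertical axis). Bars are the SE from limma, in a fit that includes the WT samples. Filled points passed an adjusted p of 0.05 over all genes: 6 are above 0 and 2, Thbs1 and Timp2, below it, and Bgn stands farthest from 0 at 6.07.

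Several other members varied without following the deleted exon. Col1a2 was at 876, 1056 and 1019 TPM in WT, 1848 and 514 TPM in exon 3 clones, and 379 and 1191 TPM in exon 9 clones. Col1a1 was lowest in clone 3 at 174 TPM and highest in clone 4 at 799 TPM, with WT at 375 to 473 TPM. For Col1a2 the clones of each set lay on opposite sides of WT, and for Col1a1 clone 1 lay within WT at 457 TPM. Lox was highest in clone 1 at 399 TPM and lowest in clone 3 at 61.7 TPM, against 151 to 191 TPM in WT. Tnc went partly with the deleted exon, at 1.64 and 0.249 TPM in exon 3 clones and 31.6 and 7.44 TPM in exon 9 clones. Both exon 9 clones were above every WT sample (1.23 to 1.74 TPM) and both exon 3 clones. Between the sets Tnc was not called, but it gained a call without clone 3 or clone 4. Nid2 and Postn, listed at 0 in clones 1 to 3, stood at 6.04 and 1.66 TPM in clone 4. Members with little spread were Lamc1 (43.0 to 55.9 TPM over the clones), Loxl1 (34.9 to 51.9 TPM) and Hspg2 (27.8 to 47.6 TPM).

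**Figure D4:**
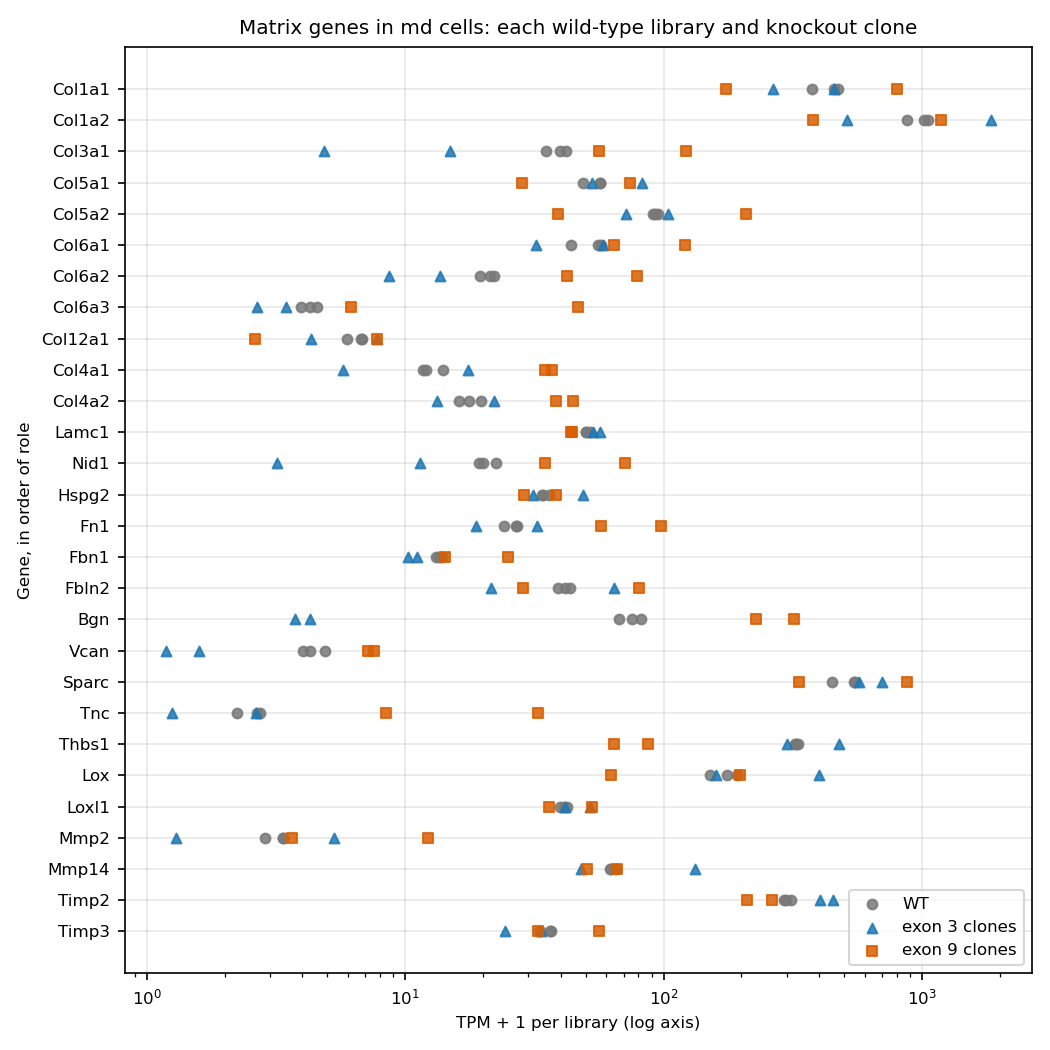
Level of the 28 matrix genes tested in md cells (vertical axis) in each library, as TPM + 1 on a log axis (horizontal axis). Grey circles are 3 WT samples, blue triangles the 2 exon 3 clones and orange squares the 2 exon 9 clones. WT samples lie close together in every gene, and Bgn runs from 2.75 TPM in clone 1 to 318 TPM in clone 3.

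Few genes of the other matrix-related lists were called between the clone sets. Of 15 collagen processing genes, 2 were lower in exon 9 clones: Pcolce, the procollagen C-proteinase enhancer (log2 -1.09 ± 0.15, limma adjusted p = 0.0206), and Leprel1, a prolyl 3-hydroxylase (log2 -1.07 ± 0.15, limma adjusted p = 0.0207). None of 14 matrix receptors or 3 further laminin chains was called in either direction. Of 17 TGF-beta pathway genes 1 was higher and 1 lower, the higher one being Ltbp3, a latent TGF-beta binding protein (log2 2.10 ± 0.30, limma adjusted p = 0.0225). None of the 6 tested mesenchyme markers was called. Of 4 tested pluripotency markers, Klf4, also expressed outside pluripotent cells, was higher in exon 9 clones (log2 0.91 ± 0.15, limma adjusted p = 0.0338). The 8 epithelial markers summed to 32.9 to 35.5 TPM in WT and 2.36 to 51.1 TPM in the clones, nearly all of it Krt19, with Epcam, Krt18, Krt5 and Cldn4 listed at 0. Their part in the matrix differences was not tested.

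In ES cells the knockout line had more type IV collagen RNA and less nidogen-1 and fibulin-1 RNA than its parent. Of 19 tested members 2 were higher and 2 lower, where 12.3% of all 12860 genes were called (limma, adjusted p under 0.05), so the members' count is near the background. Col4a1 stood at 1.21, 1.47 and 1.44 TPM in WT and 4.43, 4.62 and 4.77 TPM in KO (log2 1.24 ± 0.10, limma adjusted p = 0.00466). Col4a2 stood at 1.18, 1.27 and 0.946 TPM in WT and 3.00, 2.69 and 3.25 TPM in KO (log2 0.90 ± 0.12, limma adjusted p = 0.0145). Both chains of the type IV trimer were low, and all KO samples were above all WT samples. In every ES library both chains lay below the alternative minimum of 5 TPM, under which neither was called.

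Nid1 was at 25.0, 27.8 and 25.8 TPM in WT and 13.1, 9.49 and 11.4 TPM in KO (log2 -1.15 ± 0.13, limma adjusted p = 0.00976). Fbln1, which binds fibronectin, laminin and nidogen, was at 30.5, 30.8 and 40.6 TPM in WT and 18.9, 14.4 and 14.5 TPM in KO (log2 -1.04 ± 0.15, limma adjusted p = 0.0190). Neither gene's groups overlapped. The other basement membrane members did not pass: Lama1 was at 5.13 to 6.36 TPM in WT and 5.66 to 7.51 TPM in KO, Nid2 at 94.6 to 99.3 and 80.9 to 97.9 TPM, and Hspg2 at 53.1 to 64.2 and 47.3 to 59.7 TPM. Lamc1, the shared laminin gamma chain, was at 67.7 TPM in KO sample 1 but 43.6 and 39.8 TPM in samples 2 and 3, with WT at 56.3 to 59.1 TPM.

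Mmp14, a membrane-bound collagenase, did not pass, although its groups did not overlap, at 6.54 to 7.70 TPM in WT and 9.16 to 9.36 TPM in KO (log2 0.36 ± 0.10, limma adjusted p = 0.0525). In the remaining role groups the lowest-p members were Loxl2 (log2 -0.29 ± 0.13, limma adjusted p = 0.170), Col5a1 (0.27 ± 0.13, limma adjusted p = 0.187), Thbs1 (0.24 ± 0.20, limma adjusted p = 0.419) and Vcan (-0.16 ± 0.16, limma adjusted p = 0.505). The remaining collagens of types I, III, VI and XII were at or below 0.544 TPM in every ES library. Without KO sample 1, 8 members were called, and without KO sample 2, 2 were. Without KO sample 3, WT sample 1 or WT sample 2, 1 was, with Col4a2, Fbln1 and Nid1 lost. Col4a1 was called with any 1 of the 6 samples left out. The split of all called genes, 968 higher and 608 lower, moved to 719 and 838 under quantile normalization and to 789 and 796 with medians centred.

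**Figure D5:**
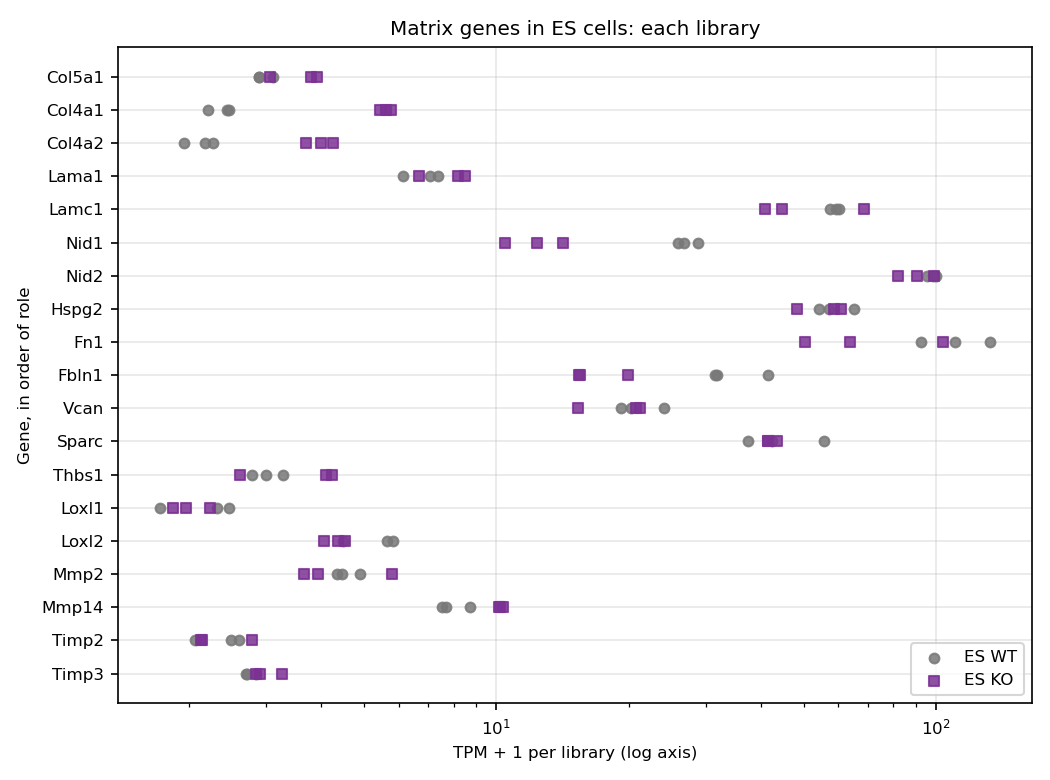
Level of the 19 matrix genes tested in ES cells (vertical axis) in each library, as TPM + 1 on a log axis (horizontal axis). Grey circles are 3 WT and purple squares 3 KO samples. The KO samples lie to the right of WT for Col4a1 and Col4a2 and to the left for Nid1 and Fbln1.

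Among related lists in ES cells, 6 of 12 TGF-beta pathway genes were higher in KO and 0 lower, with a median log2 difference of 0.40 against 0.03 over all genes. They included Skil, an inhibitor of SMAD signalling (log2 0.79 ± 0.10, limma adjusted p = 0.0155), and Cyr61, a matricellular target gene (0.96 ± 0.16, limma adjusted p = 0.0227). Of 12 matrix receptors, Sdc1, syndecan-1, was higher (1.08 ± 0.12, limma adjusted p = 0.0103) and Itga9, integrin alpha-9, lower (-0.76 ± 0.20, limma adjusted p = 0.0499). Of 15 collagen processing genes 1, Crtap, was lower (-0.51 ± 0.08, limma adjusted p = 0.0212).

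Markers of other cells moved with these values. The 14 primitive and parietal endoderm markers, a lineage that secretes type IV collagen and laminin, summed to 4.35 to 5.72 TPM in ES WT and 9.55 to 10.1 TPM in KO. Dab2 was the called one of the 2 tested (1.57 to 2.39 TPM in WT, 3.58 to 5.05 TPM in KO), Sox17, Gata6 and Foxa2 stood at most at 0.626 TPM in any ES library, and Afp and Ttr were listed at 0. Of 9 pluripotency markers 1 was higher and 3, Nanog, Esrrb and Klf4, were lower in KO. The 6 endothelial markers summed to 22.6 to 28.9 TPM in WT and 10.9 to 21.3 TPM in KO, with Cdh5 and Emcn listed at 0. The part of these markers in the ES matrix values was not tested.

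The ES and md effects of the knockout differed for 1 of 32 members, Fbln1 (log2 difference of effects -1.04 ± 0.19, limma adjusted p = 0.0173), where 3.97% of all 14463 genes did. Since Fbln1 was listed at 0 in every md library, this restates the ES difference. The call was lost without ES KO sample 2 or 3 or any 1 of the md WT samples (limma adjusted p 0.0558 to 0.0624). For Col4a1, Col4a2 and Nid1 the difference of effects did not pass.

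Cassette exons, whose inclusion was estimated from transcript TPM (percent spliced in, PSI), were testable in few members. In md cells 3 member events of 4150 events were tested and 0 were called, where 0% of all events were called (limma, adjusted p under 0.05 and at least 10 points). In Bgn the 64-nt exon at chrX:70735207-70735270 (mm9) was included at 1.86% to 3.72% in WT and 0%, 16.6%, 6.36% and 9.22% in clones 1 to 4 (difference 5.33 ± 3.75 points, SE, limma adjusted p = 0.716). In Fbln2, fibulin-2, the 141-nt exon at chr6:91209624-91209764 differed by 4.72 ± 3.67 points (limma adjusted p = 0.748) and the 178-nt exon at chr6:91165169-91165346 by -0.47 ± 2.04 points (limma adjusted p = 0.971). In ES cells the only member event was the 2880-nt exon of Vcan at chr13:89842523-89845402, which differed by -7.72 ± 3.31 points (limma adjusted p = 0.350). It was included at 43.3%, 47.2% and 38.8% in WT and 31.3%, 36.2% and 38.7% in KO, and 0.213% of 3757 events were called. Over all md events 360 had an unadjusted p under 0.05, and 4 were called when PSI was tested on a logit scale.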

How the data were processed

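RNA-seq of 13 libraries (4 md KO clones, 3 md WT, 3 ES KO, 3 ES WT) and iCLIP of 8 libraries (4 RBM10, 4 IgG) were analysed. Expression was deposited as TPM per transcript by the authors, in a table for md and another for ES cells, and the quantifier is not given in the sources used here. The submitters' processing notes name mm9 and mm10 without a role. Crosslink counts per position were deposited by the authors, mapped to mm9 per the series' design text.

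Of 100249 listed transcripts 84877 were joined to GENCODE vM1 genes (mm9), holding 85.4% to 91.5% of each library's TPM, and TPM were summed per gene. Genes reaching 1 TPM in 3 or more of the libraries compared were tested with limma 3.58.1 on log2(TPM + 1). Same-strand crosslinks over gene bodies were tested with edgeR 4.0.16 (quasi-likelihood, TMM). All tests were two-sided, with Benjamini-Hochberg adjustment over all features tested. Since TPM keep no depth, the read depth of the RNA libraries is unknown, and crosslink depth was lowest in IgG libraries 3 and 4. The scripts were tested on simulated data.

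The members and lists were chosen with earlier results of these data known. All 38 members are named. Fold changes are given for called members and, in a role group with none, for the member of lowest p, and of each other list up to 3 genes of lowest p. The values of 1 gene this rule names are not reported here. Positions and cassette exons were named by most RBM10 crosslinks and lowest p, and other members' values were added after they were seen. Sequences were read from the mm9 reference genome.

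The series' design text gives each iCLIP replicate its own IgG control. Same-numbered RBM10 and IgG libraries had correlations of -0.02 to 0.02 between their deviations from the group means. Alternatives covered the pseudocount, filters, normalization, DESeq2 1.42.0 for crosslinks, positions counted once, intronic or exonic positions, a replicate block and each library left out. Leaving out Col1a2 and using libraries 3 and 4 alone were chosen after seeing the data.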

Additional observations from a re-analysis of the deposited data

Results flagged for a closer look

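Between exon 9 and exon 3 clones 8 members differed past the threshold (limma, adjusted over all genes), on the log2(TPM + 1) scale by 6.07 for Bgn, 3.28 for Col3a1, 3.04 for Nid1, 2.43 for Vcan, 2.41 for Col6a2 and 1.27 for Col4a2, and by -0.87 for Timp2 and -2.34 for Thbs1. With 2 clones in each set, the deleted exon and the clones cannot be told apart. The ES effect on Fbln1 minus the md effect was -1.04 on the same scale, with Fbln1 listed at 0 in md cells.

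In 2 of 84 groups of 4 libraries a single library lay far from the other 3, where chance gives about 1 in 20 groups. Col6a3 was at 45.7 TPM in clone 3, and Fn1 was at 195 CPM in IgG library 4 against 412 to 451 CPM in the other IgG libraries.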

How the results depend on the processing

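Leaving out each library in turn gave 0 to 4 called genes for md KO against WT (2 with all libraries), 21 to 3985 for ES KO (1576), 2 to 479 for exon 3 clones (24), 4 to 987 for exon 9 clones (76), 51 to 2228 between the clone sets (451), 80 to 1814 for the difference between ES and md effects (574) and 1807 to 4026 for crosslinks (3414). The called members ranged over 1 to 8 in ES cells, 1 to 3 for exon 3 clones, 0 to 6 for exon 9 clones, 3 to 14 between the sets, 0 to 1 for the difference of effects, 5 to 13 for crosslinks and 4 to 10 for crosslinks higher with RBM10, and called cassette exons over 0 to 15 in ES and 0 to 1 in md cells. A pseudocount of 0.1 TPM gave 0 genes for md KO, 281 for the difference and 1 member for exon 3 clones. A minimum of 5 TPM gave 0 genes for md KO, 7 genes and 1 member for exon 3 clones, 43 genes for exon 9 clones, 365 for the difference and 33 ES cassette exons. No filter gave 6 genes for md KO and 774 for ES KO. A logit scale gave 25 cassette exons in ES and 4 in md cells. Exonic positions alone gave 1085 genes, 2 members and 0 higher members, and intronic positions 17 members, 15 of them higher. The cause of these shifts was not tested.

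The replicate numbers of the RNA samples name no shared animal or day, and same-numbered samples did not deviate together (correlations from -0.13 to 0.16). With a replicate block 0 genes were called for md KO, 422 for ES KO and 0 ES cassette exons, and the 4 ES member calls held. Among the crosslink calls those of Col12a1 (edgeR adjusted p = 0.0553) and Tnc (0.143) were lost and Col5a1 (0.0148) and Col1a1 (0.04999) gained one. No block was fitted for exon 3 or exon 9 clones against WT, between the clone sets, whose numbers are not shared, or for the difference of effects.

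Leaving out single libraries turned the direction of uncalled log2 values. In md KO, Col1a1 ranged from -0.65 to 0.085 and Mmp2 from -0.12 to 0.96, with -0.12 under a replicate block as well, where clone 4 has no WT sample of its number and adds nothing to the estimate. In exon 3 clones Lox ranged from -0.11 to 1.21 and Thbs1 from -0.12 to 0.55, and in exon 9 clones Lox from -1.46 to 0.19. In the difference of effects Col5a1 ranged from -0.072 to 0.44 and Col6a3 from -1.23 to 0.15. For crosslinks, intronic positions turned Nid1 (0.67), Vcan (0.021) and Lox (1.77), exonic positions Fn1 (-0.36) and Thbs1 (-0.047), positions counted once Thbs1 (-0.055), and libraries 3 and 4 alone Vcan (0.30).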
